A study of Mus musculus with 6 samples.

Results

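Desmosomes are the junctions that rivet epithelial cells to each other and tie their keratin filaments together across the tissue. Transmembrane cadherins, the desmogleins and desmocollins, bind between cells. Inside the cell, plakoglobin and the plakophilins, which belong to the armadillo protein family, join the cadherin tails to desmoplakin, and desmoplakin holds the keratin filaments. Squamous epithelium such as the epidermis is rich in them. The desmosome genes were taken as a list of 10 with desmosomal proteins, drawn up when earlier results of these data were known: the plakin Dsp, the armadillo genes Jup, Pkp1, Pkp2 and Pkp3, the cadherins Dsg2, Dsg3, Dsc2 and Dsc3, and Perp, which encodes a membrane protein of desmosomes. Of these 10, 9 were found by Ensembl identifier among the 17204 genes measured. The row of Dsg3, which encodes a desmoglein of basal keratinocytes, was not found, so Dsg3 was not analysed here.

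The cells were mouse skin squamous cell carcinoma (SCC) cells on the FVB background, derived from tumors that were chemically induced in mice of genotype K14CreER FAKflox/flox. In these mice both alleles of the gene for focal adhesion kinase (FAK), a kinase of cell-matrix adhesion sites, are flanked by loxP sites, and a tamoxifen-inducible Cre recombinase is driven by the keratin 14 promoter. Treatment of the isolated cells with 4-hydroxytamoxifen deleted the gene, and 1 FAK-null clone gave the SCC FAK-/- cells. SCC FAK-wt cells are the same clone after retroviral transduction with wild-type FAK, kept in 0.25 mg/ml hygromycin. Both lines therefore carry the deletion and come from 1 clone, and they differ in the retrovirus and the drug selection as well as in FAK, which cannot be told apart. RNA from 3 replicates of each line was measured on 6 whole-genome mouse GeneChips from Affymetrix. The values, normalized by the Robust Multi-array Average (RMA), were read as log2 from their range. The study compared the lines to find the transcripts that depend on FAK, and the comparison below asks how the desmosome genes differed between them. Array medians over all genes lay between 5.90 and 5.97, and none of the array pairs (0) held identical values. With 3 arrays per line, the number of arrays limits the precision of every value. The identifiers of other genes were not paired with symbols, so neither the targeted gene nor keratinocyte markers could be used to check the labels.

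Among the desmosome genes, Pkp1 fell in SCC FAK-wt cells and the other 8 measured members did not pass the test. Pkp1 (ENSMUSG00000026413) encodes plakophilin 1, an armadillo protein of the desmosomal plaque that is abundant in stratified epithelium. Its log2 values were 8.34, 8.22 and 8.22 on the SCC FAK-/- arrays of replicates 1 to 3 and 7.22, 7.37 and 6.65 on the SCC FAK-wt arrays. All 3 SCC FAK-wt arrays lay below all 3 SCC FAK-/- arrays, and the gap between the lines, 0.85 log2 units, was wider than the spread of either line, 0.72 in SCC FAK-wt and 0.12 in SCC FAK-/-. SCC FAK-/- cells averaged 8.26 ± 0.069 (SD, n = 3). SCC FAK-wt cells averaged 7.08 ± 0.38 (SD, n = 3). The log2 change was -1.18 with a standard error of 0.19, at an adjusted p of 0.0310 (limma, Benjamini-Hochberg over all genes). On a linear scale the level was 2.27-fold higher in SCC FAK-/- cells, with a 95% interval from 1.67 to 3.07, so that SCC FAK-wt cells held 44.1% of the SCC FAK-/- signal. Of the 189 genes that were lower in SCC FAK-wt at an adjusted p under 0.05, 67 fell by more than Pkp1.

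The adjusted call of Pkp1 was lost in some limma fits that left out 1 array, although its direction was not. These fits rest on 5 arrays. The call was lost without SCC FAK-wt replicate 1 (adjusted p = 0.0764), SCC FAK-/- replicate 1 (0.114), SCC FAK-/- replicate 2 (0.103) or SCC FAK-/- replicate 3 (0.105). Without a SCC FAK-/- array the log2 change stayed between -1.20 and -1.14. The call held without SCC FAK-wt replicate 2 (0.0377) or SCC FAK-wt replicate 3 (0.0274). Over the 14 alternatives the log2 change stayed between -1.33 and -0.97 and the unadjusted p, by limma or by the fit without moderation, was at most 0.00608. The call was also lost in the fit without moderation of the variances, at the highest adjusted p of these alternatives, 0.175, and in the fit with replicate number as a block, at 0.0509.

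Counted over the list, 1 of the 9 measured members (11.1%) was called at an adjusted p under 0.05, lower in SCC FAK-wt, where 1.92% of all genes were called, 0.820% as higher and 1.10% as lower. At an unadjusted p under 0.01, the threshold given in the study's methods, the same single member was called, against 6.85% of all genes in either direction and 3.66% of them lower. A lack of overlap between the arrays of the lines was seen in 2 of the 9 members (22.2%), Pkp1 and Pkp3, both lower in SCC FAK-wt, and in 21.5% of all genes, 10.0% lower and 11.5% higher, so that this share lay near the background. By their means 5 members were lower and 4 higher in SCC FAK-wt. The median log2 change was -0.084 over the members and 0.016 over all genes.

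**Figure D1:**
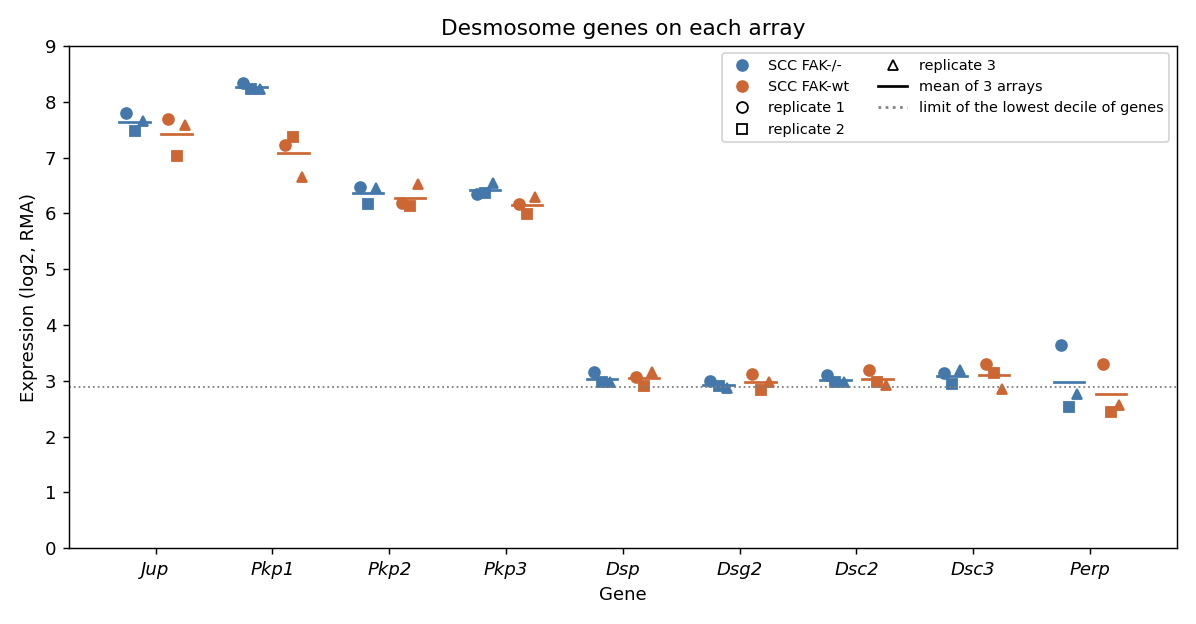
Log2 expression (RMA) of the 9 measured desmosome genes on each of the 6 arrays, with SCC FAK-/- in blue, SCC FAK-wt in orange, a marker shape for each replicate number, a bar at the mean of 3 arrays and a dotted line at 2.88, the limit of the lowest decile of all genes by mean. Pkp1 is the gene whose lines lie clearly apart, and Dsp, Dsg2, Dsc2, Dsc3 and Perp lie near the dotted line in both lines.

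The remaining armadillo genes had signal well above the bottom of the array, and none of the 3 passed the test. Jup (ENSMUSG00000001552) encodes plakoglobin, the armadillo protein that desmosomes share with adherens junctions. Its log2 values were 7.80, 7.48 and 7.65 on the SCC FAK-/- arrays and 7.68, 7.02 and 7.58 on the SCC FAK-wt arrays. The lines overlapped, and SCC FAK-wt replicate 2 was the lowest of the 6 arrays. The log2 change was -0.21 (95% interval -0.66 to 0.23, limma adjusted p = 0.679). Without SCC FAK-wt replicate 2 it was near 0, at -0.0093, but that fit kept SCC FAK-/- replicate 2, the lowest of its line. With replicate number as a block it was again -0.21 (limma adjusted p = 0.554).

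Pkp2 (ENSMUSG00000041957), which encodes the plakophilin of simple epithelia and heart muscle, read 6.47, 6.16 and 6.46 in SCC FAK-/- and 6.18, 6.13 and 6.53 in SCC FAK-wt. Its lowest and its highest array were both of the SCC FAK-wt line, and the log2 change was -0.084 (95% interval -0.43 to 0.27, limma adjusted p = 0.861). Without SCC FAK-wt replicate 2 it was -0.0061 and without SCC FAK-wt replicate 3 it was -0.21, so that its size rested on single arrays. Pkp3 (ENSMUSG00000054065), which encodes the plakophilin found in most epithelia, read 6.34, 6.37 and 6.55 in SCC FAK-/- and 6.17, 5.99 and 6.29 in SCC FAK-wt. All SCC FAK-wt arrays lay below all SCC FAK-/- arrays, but by a narrow margin. The log2 change of -0.27 (95% interval -0.55 to 0.013) did not pass the test (limma adjusted p = 0.345, unadjusted p = 0.0588). It kept its direction under all 14 alternatives, between -0.34 and -0.19, with adjusted p from 0.273 to 0.589.

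**Figure D2:**
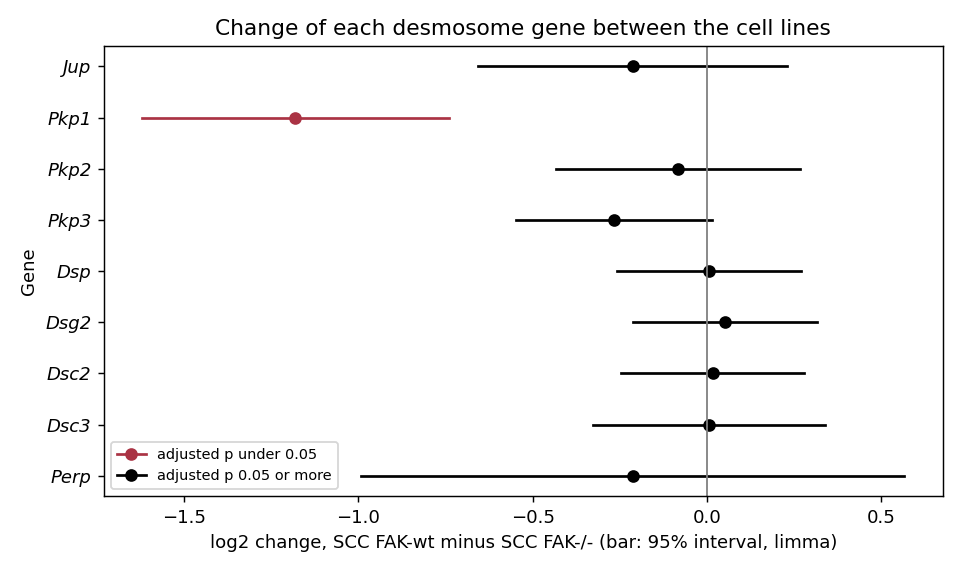
Log2 change of each desmosome gene, SCC FAK-wt minus SCC FAK-/-, with its 95% interval from limma. The interval of Pkp1, in red, runs from -1.62 to -0.74, and the other 8 intervals include 0.

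Since the plakophilins are paralogs, their change was also compared within each array, which cancels any shift common to a whole array. The pairs with Pkp1 reuse the Pkp1 values given above, so they are not a separate test of its fall. The log2 value of Pkp1 minus that of Pkp2 was 1.87, 2.06 and 1.76 on the SCC FAK-/- arrays and 1.04, 1.25 and 0.12 on the SCC FAK-wt arrays. The difference narrowed by a mean of 1.097 without overlap between the lines. SCC FAK-wt replicate 3 was the farthest from the SCC FAK-/- arrays, and without it the mean change was -0.76. For Pkp1 minus Pkp3 the means were 1.84 ± 0.16 (SD, n = 3) in SCC FAK-/- and 0.93 ± 0.52 (SD, n = 3) in SCC FAK-wt, again without overlap. For Pkp2 minus Pkp3 they were -0.054 ± 0.17 (SD, n = 3) and 0.13 ± 0.11 (SD, n = 3), which overlapped. The exact permutation test over the 6 arrays gave p = 0.1 for each of the pairs with Pkp1, the smallest two-sided p that 3 arrays against 3 allow, and p = 0.2 for Pkp2 with Pkp3. Adjusted over the 4 pairs compared, these were 0.2, 0.2 and 0.267. The size of a difference between 2 genes also holds the brightness of their probes, and only its change between the lines can be read.

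**Figure D3:**
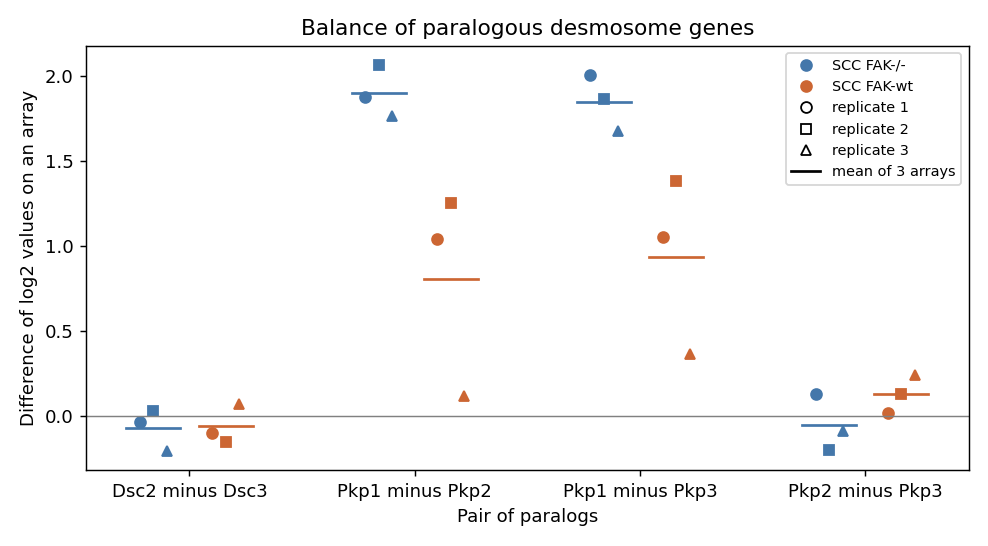
Difference of the log2 values of 2 paralogous desmosome genes on the same array, for 4 pairs, with SCC FAK-/- in blue, SCC FAK-wt in orange, a marker for each replicate number and a bar at the mean of 3 arrays. Both pairs with Pkp1 are lower on all SCC FAK-wt arrays than on any SCC FAK-/- array, and the other pairs overlap.

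The desmosomal cadherins and desmoplakin lay near the bottom of the measured range in both cell lines. Over the 6 arrays, the mean values of Dsp, Dsg2, Dsc2 and Dsc3 stood at the 11.7, 10.7, 11.6 and 12.5 percentiles of the 17204 genes, and that of Perp at the 9.98 percentile. Jup stood at the 68.4, Pkp1 at the 70.0, Pkp2 at the 54.0 and Pkp3 at the 53.6 percentile. These places show how near a probe set is to the floor of the array and do not rank transcript abundance between genes, since probes differ in brightness. The table gives no detection calls, so whether the 5 dim members were expressed was not tested.

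**Figure D4:**
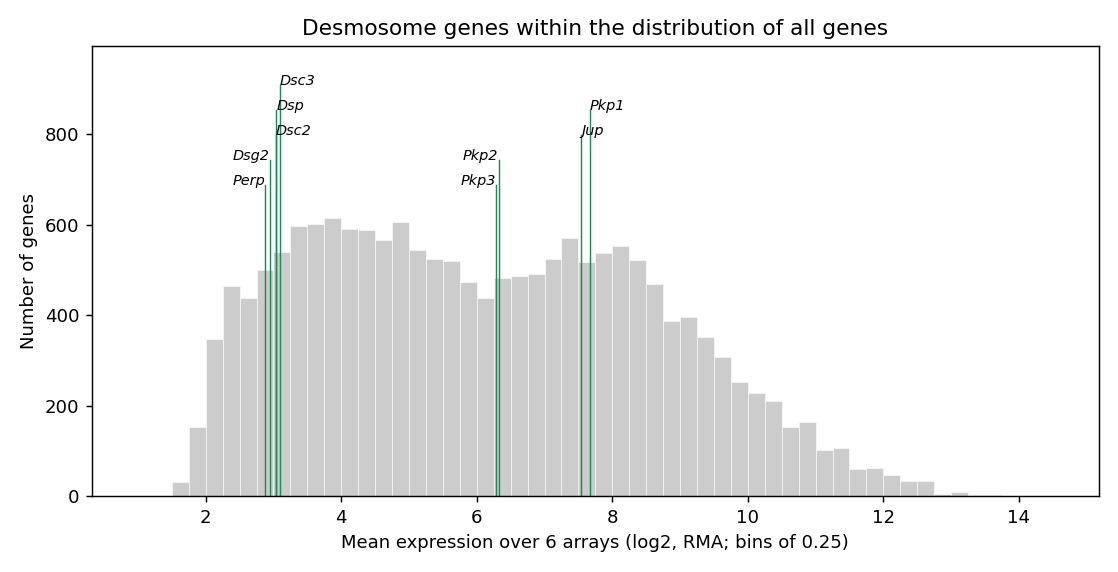
Number of genes by mean log2 expression over the 6 arrays (RMA), for all 17204 genes in bins of 0.25, with a line at the mean of each of the 9 measured desmosome genes. The cadherins, Dsp and Perp sit near a value of 3, and Jup, Pkp1, Pkp2 and Pkp3 sit above the median gene, which is at 5.94.

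Dsp (ENSMUSG00000054889) encodes desmoplakin, the link between the plaque and keratin that desmosomes of every epithelium use. Its log2 values were 3.16, 2.97 and 2.98 in SCC FAK-/- and 3.07, 2.90 and 3.15 in SCC FAK-wt. The arrays of the lines were intermixed, and the log2 change was 0.0051 (95% interval -0.26 to 0.27, limma adjusted p = 0.990). Dsg2 (ENSMUSG00000044393), the desmoglein of simple epithelia, which is also made in basal and malignant keratinocytes, read 2.999, 2.90 and 2.87 in SCC FAK-/- and 3.13, 2.83 and 2.97 in SCC FAK-wt. Its log2 change was 0.052 (95% interval -0.21 to 0.32, limma adjusted p = 0.889).

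Dsc2 (ENSMUSG00000024331), the most widely made desmocollin, read 3.10, 2.98 and 2.99 in SCC FAK-/- and 3.20, 2.99 and 2.93 in SCC FAK-wt, with a log2 change of 0.016 (95% interval -0.25 to 0.28, limma adjusted p = 0.968). Dsc3 (ENSMUSG00000059898), the desmocollin of basal stratified epithelium, read 3.14, 2.95 and 3.19 in SCC FAK-/- and 3.30, 3.14 and 2.86 in SCC FAK-wt, with a log2 change of 0.0065 (95% interval -0.33 to 0.34, limma adjusted p = 0.990). Neither gene separated the lines. The within-array difference between Dsc2 and Dsc3 was -0.071 ± 0.12 (SD, n = 3) in SCC FAK-/- and -0.061 ± 0.12 (SD, n = 3) in SCC FAK-wt, and its change of 0.0099 was smaller than the spread between replicates (exact permutation test, two-sided, p = 1, also after adjustment over the 4 pairs). The measured cadherin genes are neighbors in the genome. In the mouse annotation GRCm38.p6, the run of 9 protein-coding genes from Dsc3 to Dsg2 on 1 chromosome, in the order Dsc3, Dsc2, Dsc1, Dsg1c, Dsg1a, Dsg1b, Dsg4, Dsg3 and Dsg2, holds desmosomal cadherins and no other protein-coding gene.

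Perp (ENSMUSG00000019851) encodes a membrane protein of desmosomes and is a known target of p53 and p63. Its values were the most spread among the dim members, 3.64, 2.54 and 2.76 in SCC FAK-/- and 3.30, 2.44 and 2.57 in SCC FAK-wt. In both lines replicate 1 was the highest array, by 0.73 to 1.11 log2 units over the others. The pooled SD within lines, 0.53, was at the 97.0 percentile of all genes. The log2 change was -0.21 (95% interval -0.99 to 0.57, limma adjusted p = 0.835). Without SCC FAK-/- replicate 1 it was 0.12, but that fit kept SCC FAK-wt replicate 1, the highest array of its line. The sign thus depended on which arrays were kept. At each replicate number the SCC FAK-wt value was the lower. With replicate number as a block the change was again -0.21, with a standard error of 0.12 against 0.33 (limma adjusted p = 0.501).

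Calls were rare among genes as dim as these 5 members. In the lowest and the next decile of genes by mean value, 0.116% and 0.174% of genes were called at an adjusted p under 0.05, against 3.20% in the decile of Pkp1. The intervals of Dsp and the 3 cadherins reached no farther than 0.34 log2 units from 0, but array differences near the background can understate changes in the transcript, which was not tested here.

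Several members were high or low on the same arrays. SCC FAK-wt replicate 2 had the lowest value of its line for 6 of the 9 members, and so had SCC FAK-/- replicate 2. SCC FAK-/- replicate 1 had the highest value of its line for 7 of the 9, and all 9 stood above their own 6-array mean on it. Its median over all genes, 5.97, was within 0.070 of that of every other array. Pkp1 did not share this pattern in SCC FAK-wt cells, where replicate 2 was its highest array. How many of all genes were lowest or highest on the same arrays was not counted, so the pattern cannot be called particular to the desmosome genes. The part of these array differences in the member values was not tested beyond the replicate block. Under the block the standard error of Perp fell from 0.33 to 0.12 and that of Jup from 0.19 to 0.13. Those of Pkp1, Pkp2 and Pkp3 fell less, and those of Dsp, Dsg2, Dsc2 and Dsc3 rose slightly. Whether same-numbered arrays of the lines shared a culture or a batch is not stated in the sources used here.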

How the data were processed

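Total RNA was amplified, labeled and hybridized to Affymetrix arrays by the authors, who reduced the probes to 1 value per Ensembl gene and normalized the arrays by RMA (affy, Bioconductor). No scale is stated, and the deposited values, which run from 1.34 to 13.76, were read as log2. The package version, probe mapping and genome build are not given in the sources used here. The methods name RMA but cite the authors of GCRMA, a variant with another background correction, and which was used bears on values near the floor. Such arrays can understate the changes of dim genes, and the table has no detection calls.

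Desmosome genes were matched by Ensembl identifier. The members, lists and tests were chosen with earlier results of these data known. All members were to be named, with genes of related lists (other junctions, keratins, regulators and cell type markers, 75 symbols) that passed the test, but 0 of the 49997 genes of the GRCm38.p6 table carry an Ensembl identifier, so these lists and the FAK gene were not analysed here.

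SCC FAK-wt was compared with SCC FAK-/- in limma 3.58.1 (R 4.3.3; lmFit and eBayes, two-sided, cell line as the only term) over all 17204 genes without a filter, called at a Benjamini-Hochberg adjusted p under 0.05. The methods state p under 0.01 and name no test. Paralogs were compared by exact permutation tests. On simulated data with 200 of 17204 genes changed by 1 log2 unit between the lines, limma recovered 87.5% of them and 7.41% of its calls were false. The simulated noise was normal and independent, with the moderated variances of limma, and the full change was added to genes picked at any level. Understated changes of dim genes were not simulated, so the 87.5% does not give the recovery for the dim members. The 14 alternatives were other variance moderation, scaling, array weights, leaving out the dimmest 33.3% of genes, a replicate block and leaving out each array.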

Additional observations from a re-analysis of the deposited data

How the results depend on the processing

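The direction of the Pkp1, Pkp2, Pkp3 and Jup changes held under all 14 alternatives, and none of the 8 members other than Pkp1 was called under any of them. The number of members called lower (1, Pkp1) went to 0 without moderation of the variances (log2 change -1.18, adjusted p = 0.175). It also went to 0 with replicate number as a block (-1.18, limma adjusted p = 0.0509). Both fits have fewer degrees of freedom than the main fit. Under the block the standard error was 0.17, against 0.19 in the main fit, and the unadjusted limma p was 0.000514 against 0.000345. With each array left out the number called lower ranged from 0 to 1. The Pkp1 change then ranged from -1.33 to -0.97, with adjusted p from 0.0274 to 0.114 by limma. Same-numbered arrays did not deviate together over all genes (correlations of -0.034 to 0.028), but Perp values did. No other member's call changed under the block. Uncalled dim members changed sign: Dsp to -0.00012 under quantile normalization, Dsp without SCC FAK-wt replicates 1 or 3 or SCC FAK-/- replicates 2 or 3, Dsg2 without SCC FAK-wt replicate 1, Dsc2 without SCC FAK-wt replicate 1 or SCC FAK-/- replicates 2 or 3, Dsc3 without SCC FAK-wt replicates 1 or 2 or SCC FAK-/- replicate 2, and Perp without SCC FAK-/- replicate 1. With each array left out the log2 change ranged from -0.049 to 0.074 for Dsp, from -0.024 to 0.12 for Dsg2, from -0.065 to 0.071 for Dsc2, from -0.095 to 0.13 for Dsc3 and from -0.48 to 0.12 for Perp. Without the dimmest 33.3% of genes these 5 members have no value. With each array left out, the change of Pkp1 minus Pkp2 ranged from -1.32 to -0.76 and that of Pkp1 minus Pkp3 from -1.14 to -0.63, in both cases nearest to 0 without SCC FAK-wt replicate 3. The change of Pkp2 minus Pkp3 ranged from 0.11 to 0.27, and that of Dsc2 minus Dsc3 from -0.058 to 0.059, without a settled sign. Under the 3 scalings the 4 paralog differences kept their direction.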
